A study of Homo sapiens with 12 samples.

Results

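The subject of this account is the difference in selenite response between FTSJ1 knockout and control melanoma cells. For each gene the log2 change in ribosome footprints with selenite was taken in each genotype, and the control response was subtracted from the knockout response. This response difference is positive where footprints rose more, or fell less, in knockout cells. All 12 libraries entered it, 3 in each of the 4 groups. Of 13074 genes in the deposited count table, 10467 passed a filter on low counts and were tested; the measured difference played no part in choosing them. The cells were A375, an established human melanoma line. Per the labels, the groups were wild-type (WT) control cells without added selenium, WT cells with 30 nM sodium selenite, and cells labelled FTSJ1 KO in the design (FTS1 KO in the genotype field) without and with the same 30 nM. The knockout libraries carry 1 line name, ko1, so its differences from the control cannot be told apart from those of a single clone. The length of the treatment was not given in the sources used here. Lysates were prepared with cycloheximide and tigecycline, which hold ribosomes on the message, and the protected fragments were sequenced. The study's stated question was what happens to selenoprotein translation when the methyl mark on the wobble uridine of the selenocysteine tRNA is lost.

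Selenoproteins contain selenocysteine, an amino acid inserted at a UGA codon that would otherwise stop translation. Insertion needs a dedicated tRNA and a hairpin in the messenger RNA, and when selenium is scarce cells make some selenoproteins at the expense of others. FTSJ1 is a ribose methyltransferase of the tRNA anticodon loop, and the wobble-methylated form of the selenocysteine tRNA has been linked to the selenoproteins that respond most strongly to selenium supply, such as glutathione peroxidases. A footprint count per gene reflects both the amount of messenger RNA and its translation, which cannot be told apart here because no RNA abundance was used.

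FTSJ1 itself, the targeted gene, was measured first. In CPM, read counts scaled to a common library total, FTSJ1 gave 54.7, 51.6 and 45.4 in untreated control cells and 57.2, 72.2 and 53.6 in treated control cells. It gave 0, 6.31 and 1.47 in untreated and 3.95, 0 and 12 in treated knockout cells. Every knockout library lay below every control library. Those knockout values rest on 0, 7 and 2 reads and on 6, 0 and 6 reads. The response difference of FTSJ1 was 0.72 (95% interval -1.41 to 2.85, edgeR quasi-likelihood adjusted p = 0.69), too wide to set a direction.

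Library totals ran from 520989 to 1543627 counts. Among treated knockout libraries, number 1 was the deepest of all 12 and numbers 2 and 3, with 636920 and 520989, were the shallowest. The share of counts on histone genes was 8.84% and 9.45% in those shallow libraries and 5.31% to 7.54% in the other 10. The melanoma markers SOX10, MITF, S100B, S100A1, PRAME and VIM were all detected, with summed levels of 2950 to 4280 CPM, whereas the pigment genes PMEL, MLANA and TYR were not in the table. Of the melanoma markers 2 of 6 tested, SOX10 and VIM, were called higher, where 3.76% of all genes were. Defining markers of immune cells (PTPRC, CD3E), epithelium (EPCAM, CDH1) and endothelium (PECAM1, CDH5) were not in the table either. The marker lists summed to 23.7 to 55.5 CPM for immune cells, 40.9 to 73.6 for fibroblasts, 2.01 to 12.7 for endothelium and 210 to 388 for epithelium, the last mostly KRT18. None of the 4 tested fibroblast and 2 tested immune markers was called by edgeR, and 0 endothelial markers were deep enough to test, while KRT18 alone of 3 tested epithelial markers was called higher (0.56, lost without 6 of the 12 libraries at adjusted p up to 0.14).

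The selenite response differed between genotypes for 780 of 10467 genes (7.45%) by edgeR's quasi-likelihood test at a Benjamini-Hochberg adjusted threshold of 0.05. The difference was positive for 394 (3.76%) and negative for 386 (3.69%). The knockout cells carried most of it. In their own comparison 2149 genes (20.5%) changed with selenite, 1069 up (10.2%) and 1080 down (10.3%), against 2 genes (0.0191%), TXNRD1 and SELENOW, in control cells. With 1 library left out the knockout count was 802 to 2758, lowest without untreated knockout library 1, and the control count was 1 to 3. At an unadjusted p under 0.05 the control comparison held 284 genes. Of the 780 genes, 743 were also called in knockout cells and 0 in control cells by edgeR, and the remaining 37 were called in neither genotype alone. Their median absolute response was 0.64 in knockout and 0.11 in control cells, on the log2 scale. Treated and untreated knockout libraries did not overlap for 758 of the 780, or 97.18%, against 37.11% of all genes tested. Treated and untreated control libraries did not overlap for 131, or 16.79%, against 8.541%. The fitted responses of the genotypes had opposite signs for 673 of the 780 (86.28%). The 780 were called on these same libraries, so these shares describe them and are no separate support. Differences among called genes ran from 0.40 to 3.48 in absolute size, with a median of 0.73. Called genes also had more reads. Their median level was 130.9 CPM when higher and 132.8 CPM when lower, against 33.54 CPM for genes not called. A fit of the 7170 genes with a mean of at least 20 CPM called 911 (12.7%). Shares of lists rich in highly read genes are therefore to be set beside 12.7% as well as 7.45%, and the part of read level in them was not tested. Across all genes the responses of both genotypes, which share no library, had a Pearson r of -0.08 and a Spearman rho of -0.11. Genes are not independent replicates, so this is a description.

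**Figure D1:**
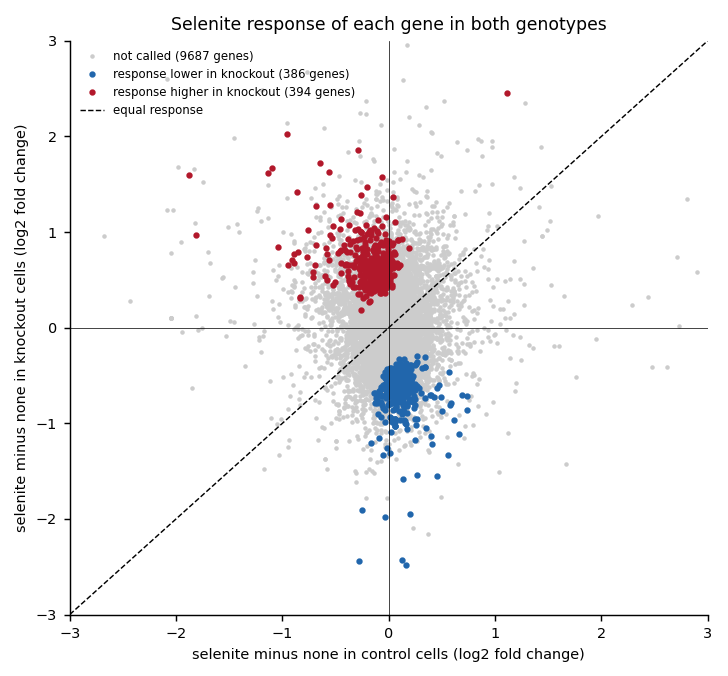
Log2 fold change with selenite in control cells (horizontal axis) and in FTSJ1 knockout cells (vertical axis), 1 point per gene tested, with called genes in colour and the dashed line marking equal responses. Both coloured clouds lie away from 0 along the vertical axis and close to 0 along the horizontal axis; 21 genes that were not called fall outside the axes, which end at 3.

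The count of called genes depended on single libraries. Without untreated knockout library 1 it was 123, without treated knockout library 2 it was 205 and without treated knockout library 3 it was 298. It was 351, 335 and 468 without untreated control library 1, 2 or 3, and 272 and 489 without treated control library 1 or 3. Without untreated knockout library 3 it was 422, and without treated knockout library 1 it was 1707. The direction of all 780 genes stayed the same in each of these fits, and 111 of them, 64 higher and 47 lower, passed the threshold in every one. With both shallow treated knockout libraries left out, the arm kept 1 library and 10 genes passed, while 1392 had an unadjusted p under 0.05. Those 10 were H2AC13, DNAAF5, CSPG4, COL6A1, RNMT and the CT45A1, CT45A2, CT45A3, CT45A8 and CT45A9 copies. In the sections that follow, a gene called durable passed in all 12 fits that each leave out 1 library. Each of those fits kept at least 1 shallow treated knockout library, so the term does not cover depth.

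Among selenoproteins, 18 of the 25 genes listed passed the filter, 19 being in the table. The response differed for 1, SELENOH, which was higher in knockout cells, and for 0 in the negative direction by edgeR. At an unadjusted p under 0.05 the counts were 4 and 2, and DESeq2 and limma called 1 and 2 higher and 0 lower. DESeq2 gave no adjusted p for several members, among them GPX4 and SELENOW. The median response of the list was 0.45 in control and 0.69 in knockout cells, against 0.00 and 0.01 over all genes tested, and its median response difference was 0.12, or -0.01 with both shallow libraries left out and a trend on neighbouring genes removed. By edgeR selenite raised 9 of the 18 and lowered 1 in knockout cells, against 10.2% and 10.3% of all genes, and raised 2 and lowered 0 in control cells. Treated libraries lay wholly above untreated ones for 9 of the 18 in control and 8 in knockout cells. Over all 10467 genes this held for 426 in control and 1916 in knockout cells.

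SELENOH, a nucleolar oxidoreductase that is among the selenoproteins most sensitive to selenium supply, gave 38.7, 43.6 and 46.1 CPM in untreated and 67.0, 92.3 and 118 in treated control cells. In knockout cells it gave 17.9, 18.0 and 34.6 CPM without and 107, 123 and 172 with selenite. Knockout libraries thus started below every control library and ended in or above the control range. The log2 response was 1.11 in control and 2.45 in knockout cells, a difference of 1.33 ± 0.38 (SE, 3 libraries per group, 95% interval 0.52 to 2.14, edgeR adjusted p = 0.047). That call was lost without any of 8 libraries (all 3 untreated control libraries, treated control 2, untreated knockout 1 and 2, treated knockout 2 and 3), where the difference was 1.14 to 1.40 and the adjusted p up to 0.14, and with the neighbour trend removed (1.14, adjusted p = 0.097).

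GPX1, which reduces hydrogen peroxide with glutathione, gave 64.7, 58.8 and 60.3 CPM in untreated and 115, 190 and 146 in treated control cells. It gave 40.5, 52.3 and 55.9 CPM in untreated and 159, 289 and 333 in treated knockout cells. Both genotypes separated fully by treatment, and the untreated knockout values were all below the untreated control values. Its response was 1.28 in control cells against 2.35 in knockout cells, with a difference of 1.07 (95% interval 0.13 to 2.01) that did not pass the threshold (edgeR adjusted p = 0.16). It passed by limma (adjusted p = 0.045), with libraries thinned to the smallest total (0.048) and without treated knockout library 1 (0.00019). By edgeR with replicate number as a block it also passed (adjusted p = 0.0092). The GPX1 difference was 0.42 with both shallow libraries left out and 0.70 with the neighbour trend removed. GPX4, which reduces lipid hydroperoxides in membranes, gave 21.3, 34.9 and 34.0 CPM in untreated control, 39.2, 57.3 and 68.0 in treated control, 8.63, 16.2 and 18.4 in untreated knockout and 40.2, 55.7 and 81.9 in treated knockout cells. The lowest untreated knockout library of GPX4 was also the deepest of that group. Its difference was 1.08 (95% interval 0.16 to 2, edgeR adjusted p = 0.14). GPX4 passed by edgeR without treated knockout library 1 (adjusted p = 0.023) and with replicate number as a block (0.0059). Its difference was 0.64 with both shallow libraries left out and 0.65 with the neighbour trend removed. SEPHS2, the selenophosphate synthetase that feeds the pathway and is itself a selenoprotein, gave 50.7, 45.0 and 41.1 CPM in untreated and 49.0, 45.6 and 52.9 in treated control cells. It gave 57.1, 58.6 and 58.9 CPM in untreated and 83.6, 86.9 and 138 in treated knockout cells, where treatment separated all libraries, with a difference of 0.65 (0.16 to 1.15, edgeR adjusted p = 0.09), or 0.42 and 0.24 under those settings.

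The 2 selenoproteins called in control cells had negative differences, neither of which passed. They were picked by their control response, which the difference subtracts, so the choice itself favours a negative sign. TXNRD1, the cytosolic thioredoxin reductase, gave 215, 203 and 241 CPM in untreated and 370, 383 and 337 in treated control cells, and 216, 232 and 227 CPM in untreated and 346, 264 and 283 in treated knockout cells. Treated libraries lay above untreated ones in both genotypes. The response was 0.73 in control cells against 0.42 in knockout cells, with a difference of -0.31 (95% interval -0.62 to 0.00) that did not pass (edgeR adjusted p = 0.21) and was -0.09 with both shallow libraries left out. SELENOW, a small thiol oxidoreductase, gave 1.33, 2.18 and 2.13 CPM in untreated control cells, which were 2, 3 and 3 reads, and 13.1, 18.0 and 10.6 in treated control cells. In knockout cells it gave 2.66, 3.60 and 3.68 CPM without and 7.90, 6.56 and 12 with selenite. These groups did not overlap in CPM, but their values also rest on few reads. In treated knockout libraries 2 and 3, 3 counts are already 4.92 and 5.99 CPM, so the separation depends on the scaling to a common total. Its difference was -1.46 (-2.96 to 0.03, edgeR adjusted p = 0.21).

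**Figure D2:**
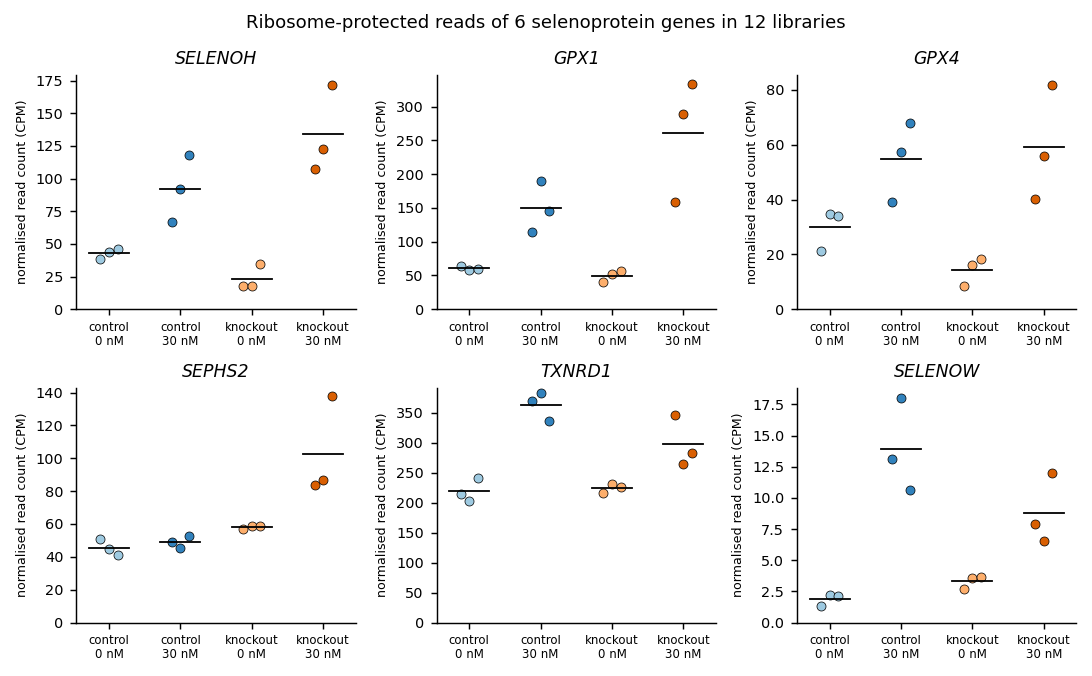
Normalised read count (CPM) of 6 selenoprotein genes in each library, by genotype and selenite dose, with points for the 3 libraries of a group and a line at their mean. SELENOH, GPX1 and GPX4 start lower in untreated knockout cells and reach at least the control range with selenite, SEPHS2 moves in knockout cells, and TXNRD1 and SELENOW move in both genotypes.

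The other 12 selenoproteins were not called either. In the endoplasmic reticulum, SELENOF, which assists glycoprotein folding, had a difference of -0.51 (95% interval -0.90 to -0.11, edgeR adjusted p = 0.10), and SELENOK, SELENOM, SELENON, SELENOS and SELENOT lay between -0.04 and 0.23. SELENOF passed with replicate number as a block (edgeR adjusted p = 0.041). SELENOI, which completes phosphatidylethanolamine synthesis, had -0.33. GPX3, the secreted peroxidase, had 0.91 and the mitochondrial reductase TXNRD2 had 0.52. TXNRD3 had -0.16, the methionine sulfoxide reductase MSRB1 -0.23 and SELENOO 0.00. With intervals of -0.62 to 2.45 for GPX3 and -1.41 to 1.86 for SELENOK, the low-count members allow large differences of either sign. Where 7.45% of all genes were called, the factors that make and insert selenocysteine gave 1 call in 17 tested. It was XPO1, a nuclear export receptor (-0.46, lost without 9 of the 12 libraries at adjusted p up to 0.14), so no dedicated insertion factor was called. Of 28 tRNA modification enzymes, TRMT6, a subunit of the tRNA adenosine methyltransferase of the T-loop region, was called lower (-0.82). Its call was lost without untreated knockout library 1 (edgeR adjusted p = 0.061).

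The 12 largest positive differences among called genes with a mean of at least 20 CPM included SELENOH; the others described here are not selenoproteins. AGPAT2, which makes phosphatidic acid, gave 28, 43.6 and 25.5 CPM in untreated and 13.9, 22.3 and 12.1 in treated control cells, and 19.3, 29.7 and 25.8 in untreated and 32.3, 57.4 and 51.9 in treated knockout cells. Its libraries separated by treatment in opposite directions in the genotypes, for a difference of 1.88 ± 0.38 (SE, edgeR adjusted p = 0.0048). DNAAF5, an assembly factor of ciliary dynein arms, did the same, with 112, 77.0 and 114 CPM falling to 60.5, 70.0 and 58.1 in control cells and 92.3, 97.3 and 115 rising to 133, 175 and 186 in knockout cells. These levels gave a difference of 1.36 ± 0.22 (SE, edgeR adjusted p = 5e-04). SERINC2, a membrane protein of the serine incorporator family, had 1.59 and NPDC1, a neural differentiation factor, 1.42. Those 4 were durable, but NPDC1 had an adjusted p of 0.064 once a trend on neighbouring genes, described in the closing paragraph of these results, was removed. With libraries thinned to the smallest total, SERINC2 (edgeR adjusted p = 0.12) and NPDC1 (0.061) did not pass. DESeq2 gave no adjusted p for AGPAT2, SERINC2 and NPDC1.

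RPL37, a large-subunit ribosomal protein, had the largest difference of the 12 at 2.36, from 19.3, 37.0 and 29.8 against 18.0, 25.5 and 12.8 CPM in control cells and 44.5, 37.8 and 62.6 against 107, 193 and 200 CPM in knockout cells. Ribosomal protein genes have many processed copies in the genome, so the assignment of their reads is uncertain. RPL37 lost its call without any of 6 libraries (untreated control 2 and 3, treated control 1 and 3, untreated knockout 1, treated knockout 2; adjusted p up to 0.088). The extracellular TGF-beta trap VASN (1.57), the Golgi GDP-fucose transporter SLC35C1 (1.55) and the proteoglycan enzymes XYLT2 (1.32) and NDST1 (1.28) each lost the call without 4 to 8 libraries, always including untreated knockout library 1 and treated knockout library 2, at adjusted p up to 0.14. TRIM11, a ubiquitin ligase (1.29), lost it only without untreated knockout library 1 (adjusted p = 0.057).

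At the other end, RPS26, a small-subunit ribosomal protein, had the largest negative difference of the 12. It gave 50.7, 45.0 and 87.3 CPM in untreated control, 39.2, 61.6 and 51.3 in treated control, 71.7, 86.5 and 66.2 in untreated knockout and 14.5, 9.84 and 16.0 in treated knockout cells. The treated knockout libraries lay below all others, for a difference of -2.16 ± 0.36 (SE, edgeR adjusted p = 0.0012), again with uncertain assignment between gene copies. RNMT, which methylates the messenger RNA cap, gave 95.3, 98.8 and 113 CPM in untreated control, 103, 108 and 92.9 in treated control, 86.3, 67.6 and 71.4 in untreated knockout and 31.6, 31.1 and 31.9 in treated knockout cells. All 3 treated knockout libraries, deep and shallow alike, gave nearly the same level, with a difference of -1.24 ± 0.22 (SE, edgeR adjusted p = 0.00092) and of -1.22 with both shallow ones left out.

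Further durable falls were ASNSD1 (-1.71), HIGD1A, a mitochondrial hypoxia-inducible protein (-1.66), FNBP1L, an endocytic adaptor (-1.39), TAF13, a subunit of TFIID (-1.23), and PPP3R1, the regulatory subunit of calcineurin (-1.22). With libraries thinned to the smallest total, HIGD1A (edgeR adjusted p = 0.09) and FNBP1L (0.075) did not pass. DESeq2 gave no adjusted p for RPS26, ASNSD1, HIGD1A and FNBP1L. HIGD1A went from 32.5, 33.3 and 39.7 to 12.5, 3.28 and 7.99 CPM in knockout cells and from 30.0, 28.3 and 33.3 to 28.6, 28.7 and 20.4 CPM in control cells. PPP3R1 went from 165, 134 and 122 to 80.3, 50.8 and 63.9 CPM in knockout cells and from 125, 131 and 142 to 158, 158 and 132 CPM in control cells. Knockout libraries separated by treatment and control libraries overlapped for both genes. The other 5 of the 12 were DPY30, a histone methyltransferase subunit (-1.32), XRCC4 of DNA end joining (-1.28), the small GTPase RIT1 (-1.22), CCDC82 (-1.21) and the DNA polymerase POLK (-1.17). They lost the call without 2 to 9 of the 12 libraries, always including untreated knockout library 1 and treated knockout library 2, at adjusted p up to 0.16.

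**Figure D3:**
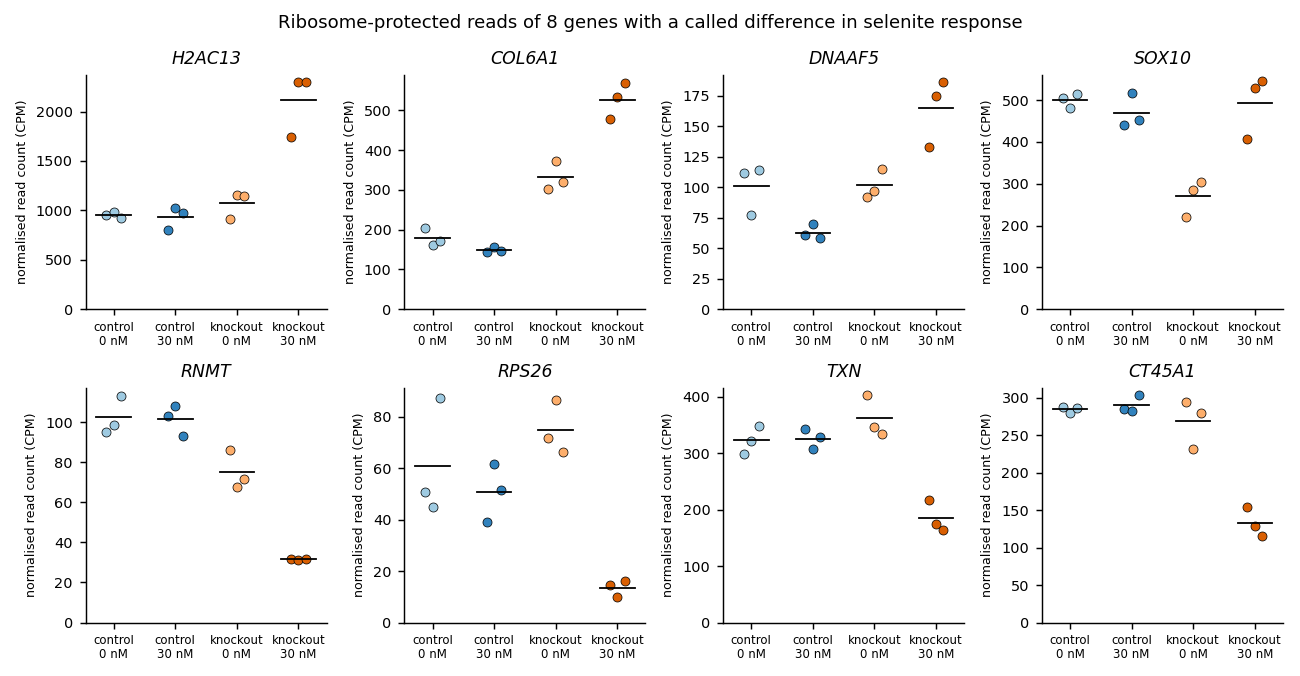
Normalised read count (CPM) of 8 genes with a called response difference, with points for the 3 libraries of each group and a line at their mean. H2AC13, COL6A1, DNAAF5 and SOX10 are highest or rise in treated knockout cells, and RNMT, RPS26, TXN and CT45A1 are lowest there, while control libraries with and without selenite overlap except for DNAAF5 and COL6A1.

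Histone genes gave many positive calls. Replication-dependent histone genes are transcribed in S phase from clusters, chiefly on chromosome 6, and their messages lack a poly(A) tail. Of 81 tested, 34 were called higher and 0 lower by edgeR, against 3.76% of all genes called higher; at an unadjusted p under 0.05 the counts were 54 and 1, and DESeq2 and limma called 46 and 39 higher and 0 lower. The median difference was 0.53, against 0.00 over all genes, with 75 of 81 above 0. The median response was 0.00 in control and 0.51 in knockout cells, where 59 of the 81 rose with selenite and 1 fell. By family, calls numbered 6 of 7 linker histones (H1), 12 of 16 H2A cluster genes, 3 of 19 H2B, 4 of 13 H3, 8 of 15 H4 and 1 of 11 others. Members of a family are nearly identical, and 4 of the called genes form 2 pairs with equal counts in every library, so the 34 hold 32 distinct measurements.

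H2AC13, a core H2A gene, gave 951, 986 and 923 CPM in untreated and 802, 1020 and 971 in treated control cells, which overlap. It gave 912, 1160 and 1150 CPM in untreated and 1740, 2300 and 2300 in treated knockout cells, which do not. The difference was 1.01 ± 0.15 (SE, edgeR adjusted p = 5e-04). The linker histone H1-5 gave 763, 805 and 872 against 729, 842 and 793 CPM in control cells and 544, 683 and 753 against 953, 1150 and 1230 CPM in knockout cells, a difference of 0.79. H2AC7 (0.82) and H2AC11 (0.79) had the same form. All 4 were durable. For the list as a whole, 12 genes were called higher without untreated knockout library 1, 14 without treated control library 1, 16 without treated knockout library 2, 17 without treated knockout library 3, and 21, 16 and 19 without untreated control library 1, 2 or 3. With both shallow libraries left out 1 was called and the median was 0.35, and with the trend on neighbouring genes removed 14 were called higher and 1 lower, with a median of 0.28. Over 23 settings the list median was 0.17 to 0.61. Because both shallow libraries also had the highest histone share, depth and histone level moved together there, and the part of depth in this result was not tested beyond those fits.

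The promoters of H2AC13 and of H1-5 are shown because both genes rose in treated knockout cells. Each line gives the 250 bases before the RefSeq start (GRCh38.p14), 5′ to 3′ on the gene's strand, with TATAAA and CCAAT on either strand in capitals. H2AC13 lies at chr6:27807923-27808172 on the plus strand and H1-5 at chr6:27867589-27867838 on the minus strand.
H2AC13: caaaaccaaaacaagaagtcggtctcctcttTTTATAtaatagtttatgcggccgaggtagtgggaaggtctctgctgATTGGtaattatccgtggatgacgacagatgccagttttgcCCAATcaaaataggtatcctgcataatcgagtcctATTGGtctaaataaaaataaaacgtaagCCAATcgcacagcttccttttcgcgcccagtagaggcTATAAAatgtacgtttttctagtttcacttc
H1-5: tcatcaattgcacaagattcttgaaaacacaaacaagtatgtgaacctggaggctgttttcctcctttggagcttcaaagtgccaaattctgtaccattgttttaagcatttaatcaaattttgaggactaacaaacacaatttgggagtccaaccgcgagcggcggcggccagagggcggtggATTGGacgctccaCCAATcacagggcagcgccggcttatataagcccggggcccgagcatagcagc
The forward TATAAA of H2AC13 begins 31 bases before the start, and that of H2AC11 at the same distance, whereas those exact letters are in neither orientation in the H1-5 and H2AC7 windows; variants of the motif were not searched. At least 1 TATAAA was found in 64.4% of 73 histone promoters and 5.38% of all 8710 promoters matched by symbol, and CCAAT in 82.2% and 36.1%. In the 30 promoters of histone genes called higher the shares were 56.7% and 80%, no higher than in all histone promoters. A match of such short letters is a description of the sequence and not a site. Called-higher genes other than histones held TATAAA in 7% of promoters, against 4.89% of all non-histone promoters.

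Extracellular matrix and matrix-remodelling genes also leaned upward. Of 34 tested, 12 were called higher and 0 lower by edgeR, where 3.76% and 3.69% of all genes were called, against 17 and 1 at an unadjusted p under 0.05, and DESeq2 and limma called 14 and 13 higher and 0 lower. The median difference was 0.36, with 0.26 in knockout and -0.06 in control cells. COL6A1, a collagen VI chain, gave 205, 161 and 172 CPM in untreated and 145, 156 and 147 in treated control cells. It gave 303, 374 and 320 CPM in untreated and 479, 534 and 569 in treated knockout cells. In both genotypes the treated libraries lay on one side of the untreated ones, below them in control and above them in knockout cells, with a difference of 0.93 ± 0.16 (SE, edgeR adjusted p = 0.00054). LAMA5, a laminin chain (1.00), COL4A2, a basement-membrane collagen chain (0.72), and HSPG2, the proteoglycan perlecan (0.71), were durable too. With the trend on neighbouring genes removed 10 were called and the median was 0.36. The list held 5 calls without untreated knockout library 1, untreated control library 1, treated control library 1 or treated knockout library 2, 7 without untreated control library 2 or untreated knockout library 3, and 8 without treated knockout library 3, and with both shallow libraries left out 1, COL6A1, with a median of 0.32. Over all 24 settings the list median was 0.31 to 0.45.

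Genes of melanoma identity and signalling gave between 0 and 3 calls a list, against 7.45% of all genes called. SOX10, the neural crest transcription factor that specifies the melanocyte lineage, gave 505, 482 and 514 CPM in untreated and 440, 518 and 452 in treated control cells. It gave 221, 284 and 305 CPM in untreated and 407, 528 and 545 in treated knockout cells, so that the treated knockout libraries came to overlap the control libraries. The difference was 0.95 ± 0.16 (SE, edgeR adjusted p = 7e-04), durable and 0.69 with the neighbour trend removed. SOX10 was the only call among 10 melanocyte differentiation genes, whose median difference was -0.09. Among 24 genes of dedifferentiated melanoma, VIM (0.43) and TGFBI (0.44), the latter also a matrix-list gene, were called higher and ITGB1 (-0.60) lower. VIM and TGFBI lost the call without 7 and 9 libraries, at adjusted p up to 0.099, and ITGB1 without untreated knockout library 1 (adjusted p = 0.066). Among 24 outputs of the ERK pathway 3 were called higher and 0 lower by edgeR. ETV4, an ETS transcription factor induced by ERK, was durable (0.97, adjusted p = 0.051 with the neighbour trend removed), whereas the feedback inhibitors SPRY4 (0.65) and DUSP4 (0.68) each lost the call without 8 libraries, at adjusted p up to 0.11. The 10 KLF transcription factors gave no call, with 0 at an unadjusted p under 0.05 by edgeR, and the smallest p-values belonged to KLF6 (-0.74) and KLF4 (0.81). Of 39 interferon response and HLA genes, the class I antigen-presenting chains HLA-B (1.23, durable) and HLA-C (0.96, lost without 3 libraries) were called higher. Reads of these related genes may be shared, and the adjusted p values with the neighbour trend removed were 0.055 and 0.17.

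Ribosomal proteins and translation factors had medians of opposite sign. Of 80 cytosolic ribosomal proteins 18 were called higher and 2 lower, with a median difference of 0.17, whereas of 41 translation factors 2 were called higher and 7 lower, with a median of -0.15. Over all genes 3.76% were called higher and 3.69% lower. RPL27A gave 231, 242 and 220 CPM in untreated and 170, 237 and 212 in treated control cells, and 274, 371 and 334 in untreated and 505, 551 and 569 in treated knockout cells. Its control libraries overlapped and its knockout libraries did not, with a difference of 0.90 ± 0.16 (SE, edgeR adjusted p = 0.0012). RPS2 (0.75) was durable but had an adjusted p of 0.11 with the neighbour trend removed, where the list held 4 calls higher and 1 lower. EIF2S1, the alpha subunit of eIF2 that is phosphorylated in the integrated stress response, gave 237, 220 and 216 against 250, 240 and 211 CPM in control cells and 289, 227 and 266 against 172, 149 and 136 CPM in knockout cells. Only the knockout libraries separated, with a difference of -0.81 ± 0.17 (SE, edgeR adjusted p = 0.0048). EIF3M, a subunit of the eIF3 initiation complex, was durable (-0.63). Its partner EIF3E (-0.65) lost the call without untreated knockout library 1 or treated knockout library 2, at adjusted p up to 0.06. EEF2, the translocation factor, was called higher (0.51) but lost the call without 5 libraries. The ribosomal list held 5 calls higher without untreated knockout library 1, 6 and 9 without treated knockout library 2 or 3, 9 without treated control library 1, and 12 and 11 without untreated control library 1 or 2. The factor list held 2 or 3 calls lower without any of untreated knockout 1, treated knockout 2 and 3, treated control 1 and the untreated control libraries, and with both shallow libraries left out neither list held a call.

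Of 77 mitochondrial ribosomal proteins 15.58% were called, and their median difference was 0.02. The called share was 7.45% of all genes and 12.7% in the fit of genes of at least 20 CPM. Calls were 7 higher, such as MRPL28 (0.87) and MRPS34 (0.99), and 5 lower, such as MRPS35 (-0.83). Those 3 were durable, although MRPL28 and MRPS34 had adjusted p values of 0.051 and 0.059 with the neighbour trend removed. The 77 nuclear-encoded subunits of oxidative phosphorylation gave 6 calls higher and 3 lower (11.69% called). These included NDUFS8 of complex I (0.79) and COX5A of cytochrome oxidase (-0.68), which lost the call without 2 and 1 libraries. Aminoacyl-tRNA synthetases gave 0 calls higher and 3 lower of 23 by edgeR (13.04% called), among them RARS1 (-0.51). Each of the 3 lost its call without 9 libraries, at adjusted p up to 0.14.

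In the unfolded protein response list 5 of 26 were called lower and 0 higher by edgeR, where 3.69% of all genes were called lower, against 9 and 3 at an unadjusted p under 0.05, and DESeq2 and limma called 4 and 3 lower and 0 higher; the median difference was -0.27. HSP90B1, the most abundant chaperone of the list, gave 3440, 3070 and 3220 CPM in untreated and 3530, 2890 and 2840 in treated control cells. It gave 4030, 3190 and 3370 CPM in untreated and 2590, 2110 and 2200 in treated knockout cells, where the treated libraries lay below all others. The difference was -0.54 ± 0.14 (SE, edgeR adjusted p = 0.017). PDIA3, a disulfide isomerase (-0.57), CANX, the lectin chaperone calnexin (-0.41), and DNAJB9, a cochaperone of BiP (-1.14), had the same sign. All 4 lost the call without 5 to 9 libraries, always including untreated knockout library 1 and treated knockout libraries 2 and 3, at adjusted p up to 0.16, and without any of those 3 libraries the list held 0 calls by edgeR. Cytosolic heat shock proteins gave 3 calls higher and 5 lower of 22, with a median of -0.08. The small heat shock protein HSPB1 (0.70) and the stress-induced HSPA1B (0.70) were higher, and HSP90AA1 (-0.50) and the chaperonin subunit TCP1 (-0.56) lower. These 4 lost the call without 2 to 6 libraries, and HSPA1B shares its reads with a near-identical paralog. Of 39 proteasome subunits, with a median of -0.06, 2 were called lower, PSMA4 (-0.66, adjusted p = 0.051 without untreated knockout library 1) and PSMD12 (-0.61, lost without 8 libraries).

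Redox and metabolic genes outside the selenoproteins gave single calls of both signs. The called share was 7.45% of all genes and 12.7% in the fit of genes of at least 20 CPM. TXN, thioredoxin, the substrate of TXNRD1, gave 299, 321 and 348 CPM in untreated and 343, 307 and 328 in treated control cells. It gave 404, 346 and 335 CPM in untreated and 218, 175 and 164 in treated knockout cells, below all other libraries. The difference was -0.95 ± 0.16 (SE, edgeR adjusted p = 5e-04), durable and called with the neighbour trend removed (-0.70). TXN and TXNL1 (-0.64, lost without 9 libraries) were the 2 calls among 22 peroxiredoxins and thioredoxins (9.091% called). Of 21 targets of NRF2, the oxidant-responsive transcription factor, TXN was lower and 2 were higher, TKT of the pentose phosphate pathway (0.68, durable) and the ferritin light chain FTL (1.22, lost without 7 libraries). TKT gave 1030, 1070 and 966 against 888, 932 and 915 CPM in control cells and 1140, 1380 and 1260 against 1620, 1970 and 1820 CPM in knockout cells. It thus separated by treatment in both genotypes, in opposite directions.

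Of 20 ferroptosis regulators 15% were called, against 7.45% of all genes and 12.7% in the fit of genes of at least 20 CPM. ACSL4, which loads polyunsaturated fatty acids into lipids, was called lower (-0.79), as was TFRC, the transferrin receptor (-0.51). DHCR7 of sterol synthesis was called higher (0.45). ACSL4 went from 198, 163 and 188 to 130, 105 and 85.8 CPM in knockout cells and from 116, 121 and 130 to 136, 121 and 124 CPM in control cells, and lost its call only without untreated knockout library 1 (adjusted p = 0.06). TFRC and DHCR7 lost theirs without 5 and 9 libraries, at adjusted p up to 0.16. Cholesterol synthesis genes gave 2 calls in each direction of 23 (17.39% called). The sterol enzymes MSMO1 (-0.79) and CYP51A1 (-0.62) were lower and the regulator SREBF2 (0.59) higher, none of them durable. Of 29 glycolysis and hypoxia genes 4 were called higher and 2 lower (20.69% called), with a median of 0.29. ENO2, an enolase, was durable (1.00), and ALDOA (0.46), GAPDH (0.48) and LDHA (-0.43) were not. ATF4 targets gave 2 calls in each direction of 26 (15.38% called), and none of the 4 was durable. The 2 metallothionein-list genes tested, MT2A (-0.24) and SLC30A1 (-0.34), were not called.

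Cell cycle genes gave 0 calls higher and 4 lower of 40 in the mitosis list by edgeR, where 3.69% of all genes were called lower, against 2 and 12 at an unadjusted p under 0.05, with a median difference of -0.27. NUF2, a kinetochore subunit, gave 178, 190 and 203 against 214, 188 and 207 CPM in control cells and 148, 123 and 141 against 103, 85.2 and 71.9 CPM in knockout cells, where the treatment groups did not overlap. Its difference was -0.72 ± 0.18 (SE, edgeR adjusted p = 0.017). NUF2, TOP2A (-0.54), CDK1 (-0.49) and CENPE (-0.69) lost the call without 3 to 9 libraries, always including untreated knockout library 1 and treated knockout library 3, at adjusted p up to 0.19, and the list median was -0.12 with both shallow libraries left out. DNA replication and G1/S genes gave 3 calls higher, such as the helicase subunit MCM2 (0.66), and 2 lower of 36, with a median of -0.08, and none was durable. Among 22 p53 targets the cell cycle inhibitor CDKN1A (0.76) and BAX (0.64) were called higher and the p53 ligase MDM2 (-0.69) lower, each lost without 3 to 10 libraries. Splicing factors gave 3 calls higher and 5 lower of 51. Of these SNRPB (0.98), SNRPD1 (-0.98) and HNRNPA2B1 (-0.60) were durable. Of 52 chromatin regulators 2 were called higher, including KMT2D (0.74), and 1 lower, ATRX (-0.69), and none was durable. Calls numbered 2 higher and 4 lower of 246 ZNF genes and 6 and 5 of 168 solute carriers, shares of 2.439% and 6.548% against 7.45% overall.

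**Figure D4:**
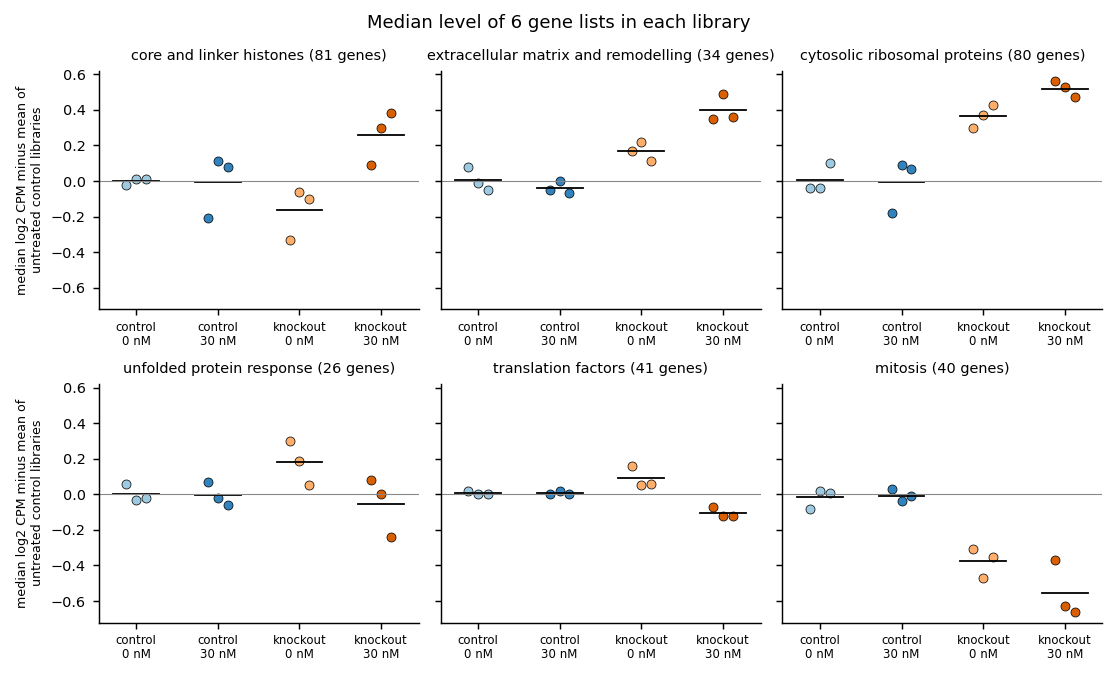
Median over the genes of a list of log2 CPM minus its mean in the untreated control libraries, for each library, with points for libraries and a line at the mean of a group. Histone, matrix and ribosomal protein lists lie higher in treated than in untreated knockout libraries and translation factors lower, while for the unfolded protein response and mitosis lists the knockout groups overlap; treated control libraries lie between -0.21 and 0.11 in all 6 panels.

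The response difference followed the genomic surroundings of a gene. The number of protein-coding genes whose midpoints lie within 1 Mb was counted in the RefSeq table for 10461 genes tested. Across genes it had a Spearman rho of 0.40 with the response difference, of 0.43 with the knockout response and of -0.07 with the control response. Genes are not independent, so these are descriptions, and leaving out histone genes gave the same values. In the fifth of genes with 0 to 10 neighbours 13 were called higher and 145 lower (0.58% and 6.46%), with a median difference of -0.25. In the fifth with 49 to 112 neighbours 176 were called higher and 17 lower (8.56% and 0.827%), with a median of 0.36. The median response over these same groups went from -0.22 to 0.35 in knockout cells and from 0.01 to -0.02 in control cells. Chromosome 19, the most gene-dense by this count, held 61 calls higher and 0 lower by edgeR among 655 genes, and chromosome 4 held 0 higher and 23 lower among 394.

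All 3 treated knockout libraries showed the trend when each was set against the mean of the untreated knockout libraries, with rho of 0.37, 0.38 and 0.38. The 3 values share that reference, so a trend in the untreated libraries would enter each of them. A rank correlation also does not measure the size of a shift, and the part of depth in the trend was not tested. Treated control libraries set against the untreated control mean gave -0.21, 0.12 and -0.03. Called-higher genes had a median of 45 neighbours, called-lower genes 12 and the remaining genes 20. Gene length, which is shorter where genes lie close, had a rho of -0.26 with the response difference, with medians of 11110 bases for called-higher and 40910 for called-lower genes. The GC content of the promoter had a rho of 0.09 over 8710 genes. With a smooth trend on the neighbour count removed from each library, 364 genes were called, 171 higher and 193 lower, of which 251 were among the 780. The protocadherins, most of whose 59 tested genes lie on chromosome 5, lay mostly on one side without single calls. Their median difference was 0.58, with a median response of 0.44 in knockout and -0.13 in control cells. Of the 59, 55 lay above 0, against 5235 of 10467 genes tested. By edgeR 0 were called and 29 had an unadjusted p under 0.05, all positive, against 1268 positive of all 10467 genes. Reads may be shared among these related genes, so the 59 may not be separate measurements. The median difference was 0.21 with the trend removed.

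**Figure D5:**
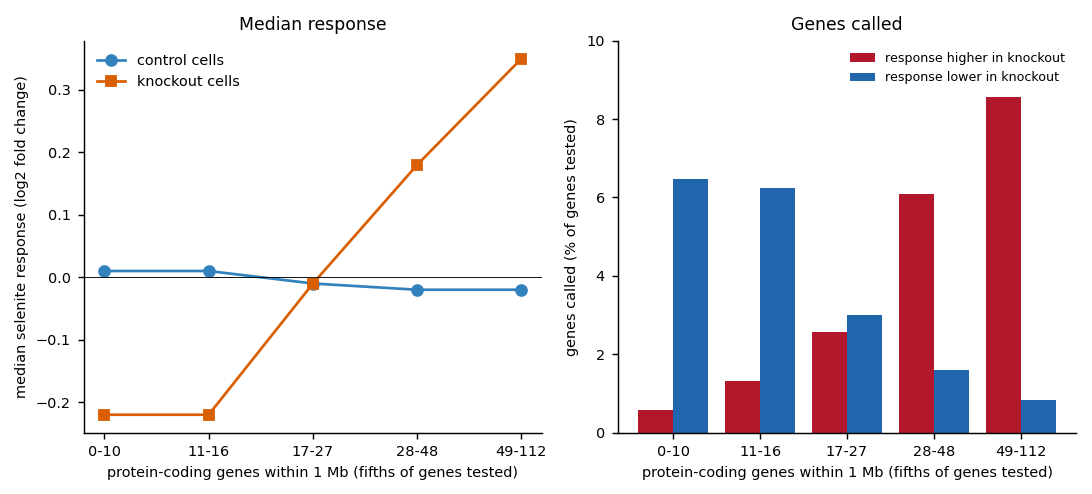
Median log2 fold change with selenite in control and knockout cells (left) and the percentage of genes called with a higher or lower response in knockout cells (right), over 5 groups of the genes tested by the number of protein-coding genes within 1 Mb. The knockout median climbs from -0.22 to 0.35 while the control median stays between -0.02 and 0.01, and calls shift from mostly lower to mostly higher.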

How the data were processed

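Ribosome footprints of 12 A375 libraries were read from raw counts per gene, whole numbers deposited by the authors. Per the submitters' processing notes, Trim Galore 0.6.10, STAR 2.7.9a and DESeq2 were used with GRCh38, with no role given; the counter, the annotation and any use of molecular identifiers are not given in the sources used here. Equal counts in copies such as H4C14 and H4C15 show that some reads were counted for more than 1 gene: 53 genes tested share their counts with another, and the 780 called genes hold 770 distinct measurements.

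Counts were fitted in R 4.3.3 with edgeR 4.0.16 (filterByExpr with minimum count 10 and minimum total 15, TMM, robust quasi-likelihood, 1 coefficient per group, all 12 libraries), and Benjamini-Hochberg adjustment over all 10467 genes at 0.05. Standard errors are derived from the F statistic, and intervals are 95%. Totals of 520989 to 1543627 put 3 counts at 1.97 to 5.99 CPM, a floor that covers counting error only. Alternatives used limma 3.58.1, DESeq2 and refits. Symbols were matched to RefSeq GRCh38.p14, 12978 directly and 65 by synonym, with 31 unmatched; promoters are RefSeq's. The fits were checked on simulated data.

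Named genes are FTSJ1, all selenoproteins tested, the 12 largest differences in each direction among called genes with a mean of at least 20 CPM, the 5 largest per class of response, and up to 4 called members per list (2 with the smallest p where none was called). A few genes that meet this rule are not reported here. Genes and lists were chosen with earlier results of these data known. Library 1, 2 and 3 name the replicate numbers in the labels, which do not state the origin of replicates. The p-values therefore reflect only how these samples vary, and that variation may be technical.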

Additional observations from a re-analysis of the deposited data

Results flagged for a closer look

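A test of the difference between genotypes marked 394 genes with a higher and 386 with a lower selenite response in knockout cells by edgeR's quasi-likelihood test, and the called genes named in the results are among them. Values are log2 response differences, knockout minus control, and the causes were not tested. The response was higher in knockout cells for SELENOH (1.33), RPL37 (2.36), AGPAT2 (1.88), SERINC2 (1.59), VASN (1.57), SLC35C1 (1.55), NPDC1 (1.42), DNAAF5 (1.36), XYLT2 (1.32), TRIM11 (1.29) and NDST1 (1.28). Higher responses were also measured for TKT (0.68), FTL (1.22), DHCR7 (0.45), HSPB1 (0.70), HSPA1B (0.70), NDUFS8 (0.79), SREBF2 (0.59), ENO2 (1.00), ALDOA (0.46), GAPDH (0.48), HLA-B (1.23) and HLA-C (0.96). The response was higher in knockout cells for SOX10 (0.95), VIM (0.43), TGFBI (0.44), ETV4 (0.97), SPRY4 (0.65), DUSP4 (0.68), CDKN1A (0.76), BAX (0.64), MCM2 (0.66), EEF2 (0.51), COL6A1 (0.93) and LAMA5 (1.00). Higher responses were also measured for COL4A2 (0.72), HSPG2 (0.71), KMT2D (0.74), SNRPB (0.98), KRT18 (0.56), RPL27A (0.90), RPS2 (0.75), MRPL28 (0.87), MRPS34 (0.99) and H2AC13 (1.01). The response was higher in knockout cells for H2AC7 (0.82), H1-5 (0.79) and H2AC11 (0.79).

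The response was lower in knockout cells for RPS26 (-2.16), ASNSD1 (-1.71), HIGD1A (-1.66), FNBP1L (-1.39), DPY30 (-1.32), XRCC4 (-1.28), RNMT (-1.24), TAF13 (-1.23), PPP3R1 (-1.22), RIT1 (-1.22), CCDC82 (-1.21) and POLK (-1.17). Lower responses were also measured for XPO1 (-0.46), TRMT6 (-0.82), TXN (-0.95), TXNL1 (-0.64), ACSL4 (-0.79), TFRC (-0.51), HSP90B1 (-0.54), PDIA3 (-0.57), DNAJB9 (-1.14), CANX (-0.41), HSP90AA1 (-0.50) and TCP1 (-0.56). The response was lower in knockout cells for COX5A (-0.68), MSMO1 (-0.79), CYP51A1 (-0.62), LDHA (-0.43), ITGB1 (-0.60), MDM2 (-0.69), NUF2 (-0.72), TOP2A (-0.54), CDK1 (-0.49), CENPE (-0.69), RARS1 (-0.51) and EIF2S1 (-0.81). Lower responses were also measured for EIF3M (-0.63), EIF3E (-0.65), PSMA4 (-0.66), PSMD12 (-0.61), ATRX (-0.69), SNRPD1 (-0.98), HNRNPA2B1 (-0.60) and MRPS35 (-0.83).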

How the results depend on the processing

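The 780 calls, 394 higher and 386 lower, became 388 (203 and 185) with libraries thinned to the smallest total, 364 (171 and 193) with the neighbour trend removed, 10 (4 and 6) with both shallowest libraries left out and 26 (11 and 15) with both changes. Leaving out 1 library gave 123 to 1707 calls, 71 to 751 higher and 52 to 956 lower. In knockout cells alone the 2149 calls became 1404 by DESeq2, 1410 thinned, 1228 with the trend removed, 54 with both shallowest left out and 72 with both changes, and 802 to 2758 with 1 library left out. In control cells alone the 2 calls became 1 among genes of at least 20 CPM and 1 to 3 with 1 library left out. For the difference, DESeq2 called 600 of the 3969 genes to which it gave an adjusted p (15.1%), and limma called 743 of 10467. The fit without a filter called 714 of 13058, genes of at least 20 CPM gave 911 of 7170 (12.7%), and the fit without histones 766 of 10386. These counts rest on different sets of genes. The replicate block gave 1268 calls (645 and 623), which held all 780, and 5 in control cells. Same-numbered libraries correlated at -0.03 to 0.28, with 7 of 18 pairs over 0.1. The numbers were not taken as pairs because not every pair passed 0.1, and that limit is a choice. Yet 11 of 12 libraries correlated best with their own number, a hint from the data and not from the design. Whether the replicates are paired was not settled. Under the block GPX1 (adjusted p = 0.0092), GPX4 (0.0059) and SELENOF (0.041) passed. The setting that joins the trend with both shallowest libraries left out was chosen after seeing the data. Fits with fewer libraries or counts have less power, but fewer libraries did not always give fewer calls, with 1707 without treated knockout library 1. With both shallowest libraries left out some differences shrank, such as EIF3E from -0.65 to -0.37. Others held, such as RNMT at -1.24 and -1.22, or grew, such as ASNSD1 from -1.71 to -1.92. The causes were not tested. Medians of lists near 0, such as tRNA modification (-0.37 to 0.12) and ferroptosis (-0.14 to 0.26), took both signs over 24 settings. Depth limits low-count genes most in treated knockout libraries 2 and 3, where 3 counts are 4.92 and 5.99 CPM.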

Other observations

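Some genes outside the naming rule were chosen after their values were seen. The 9 tested CT45A genes, near-identical X-linked cancer-testis copies with 5 distinct count profiles, were all lower (-1.09 to -1.01). CT45A1 gave 288, 280 and 286 CPM in untreated control, 285, 283 and 304 in treated control, 294, 232 and 280 in untreated knockout and 154, 129 and 116 in treated knockout cells. The treated knockout libraries lay below all others. CSPG4, a melanoma surface proteoglycan, gave 951, 920 and 890 CPM in untreated control, 822, 902 and 830 in treated control, 329, 413 and 358 in untreated knockout and 542, 621 and 677 in treated knockout cells. Knockout libraries stayed below the control libraries with and without selenite, and the response difference was 0.85.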
